A study of Mus musculus with 6 samples.

Results

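The FXYD regulators and sodium pump subunits are 8 genes, Fxyd1 to Fxyd6, Atp1b1 and Atp1b3, of 18460 genes with reads in at least 1 of 6 mouse breast tumors. They were selected on these same tumors, because Fxyd2 was higher in every test tumor than in every control tumor. The values of Fxyd2 below are therefore a description and carry no test. The other 7 genes were taken as relatives of Fxyd2 or as partners of the same pump, and results of these data were known when the list was drawn up.

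The sodium pump, or Na,K-ATPase, moves sodium out of the cell and potassium in at the cost of ATP, and in epithelia it sets the gradient that drives salt, water and nutrient transport. It consists of a catalytic alpha subunit, a beta subunit that brings alpha to the cell surface, and often a small single-span FXYD protein that tunes the pump's affinity for its ions. FXYD proteins are named for a short signature of phenylalanine, any residue, tyrosine and aspartate just outside the membrane. Fxyd2 encodes the gamma subunit, best known from kidney tubules, and the secretory mammary epithelium is known to hold its sodium pump at the basolateral membrane.

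The tumors were spontaneous breast tumors of Balb/c mice that carried the PyMT transgene and lacked Rag1, so all 6 mice made no mature T or B cells of their own. Every mouse received CD4+ T cells at 4 wk of age, and tumors were taken at 18 to 20 wk. The 3 test tumors came from K14-TSLPtg;PyMTtg;Rag1KO+CD4+ T cells mice, in which a keratin 14 promoter drives the cytokine TSLP in keratinocytes and other basal epithelia, and the 3 control tumors from PyMTtg;Rag1KO+CD4+ T cells mice, without that transgene. MMTV-PyMT expresses the polyoma middle T oncogene in mammary epithelium. By the study's methods each tumor came from a separate mouse. The comparison asks which genes differ between tumors that grew with TSLP-stimulated CD4+ T cells and tumors that grew with CD4+ T cells alone.

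Total expected counts ran from 8373390 to 9449565 per tumor, and 3 counts correspond to 0.317 to 0.358 CPM (counts per 1000000). Tslp itself had 2, 2 and 3 counts in control tumors 1, 2 and 3 and 12, 7 and 2 counts in test tumors 1, 2 and 3, so test tumor 3 was at the control level. Rag1 had 4 to 27 counts per tumor in control and 6 to 12 in test tumors, and Ms4a1, which marks B cells, was at 0 in all 6 tumors. The tumors were epithelial by their markers, with Krt8, Krt18, Krt19, Epcam, Cdh1 and Elf5 read in all of them. The sum of these 6 luminal genes was 1872 to 4081 CPM in control tumors and 5322 to 5370 CPM in test tumors. In whole tumors, more cells of a type and more RNA per cell cannot be told apart.

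The signature that defines the FXYD family is shown for the 6 FXYD members, because it is what the 6 mRNAs share by definition while their levels in these tumors differ widely. Each line gives 42 coding bases from the GENCODE transcript on GRCm38, 5′ to 3′ on the coding strand, with the 4 codons of the signature in capitals. All 6 windows span at least 1 splice junction, so the coordinates run from the first to the last base and include introns.
Fxyd1: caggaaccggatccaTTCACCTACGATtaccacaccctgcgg
Fxyd2: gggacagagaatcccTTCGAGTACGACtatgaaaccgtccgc
Fxyd3: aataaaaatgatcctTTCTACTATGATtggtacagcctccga
Fxyd4: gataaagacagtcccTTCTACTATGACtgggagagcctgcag
Fxyd5: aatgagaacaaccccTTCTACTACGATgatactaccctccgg
Fxyd6: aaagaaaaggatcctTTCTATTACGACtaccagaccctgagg
The windows lie at chr7:31053458-31053917 on the minus strand for Fxyd1, chr9:45408120-45408316 on the plus strand for Fxyd2 and chr7:31071350-31072181 on the minus strand for Fxyd3. Those of Fxyd4, Fxyd5 and Fxyd6 lie at chr6:117934484-117935155 (minus), chr7:31035267-31035410 (minus) and chr9:45390648-45390793 (plus). The signature began at codon 17 of the 192-base reading frame of Fxyd2, at codons 29 or 30 in Fxyd1, Fxyd3, Fxyd4 and Fxyd6, and at codon 136 of the 537-base frame of Fxyd5, whose protein has a long extracellular part. Fxyd2 and its chromosomal neighbour Fxyd6 shared 25 of 42 bases in this window, and Fxyd3 and Fxyd5, the most abundant FXYD mRNAs in these tumors, shared 27 of 42. The closest pair was Fxyd1 with Fxyd6, at 31 of 42.

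Fxyd2 was close to absent from control tumors and present in every test tumor. The expected counts were 4, 2 and 5 in control tumors 1, 2 and 3 and 71, 194 and 35 in test tumors 1, 2 and 3. As CPM these were 0.463, 0.216 and 0.533 against 8.19, 23.7 and 3.71. The control values lay near the level of 3 counts, and the lowest test tumor lay well above the highest control tumor. Pooled over 3 tumors a group, 300 counts against 11 gave a ratio of counts per total of 28.2. The fitted log2 fold change was 4.83 (SE 0.85), the fifth highest rise of 13706 genes tested, and it was 3.83 without test tumor 2. Fxyd2 was picked for this rise, so its rank among genes is a description only. The average length of Fxyd2 transcripts that the deposited files give was 569 bases in all 3 control tumors and 592.51, 590.33 and 601.3 bases in test tumors 1, 2 and 3. This length is a mean over transcript variants weighted by their estimated levels, and in control tumors it rests on 2 to 5 reads.

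**Figure D1:**
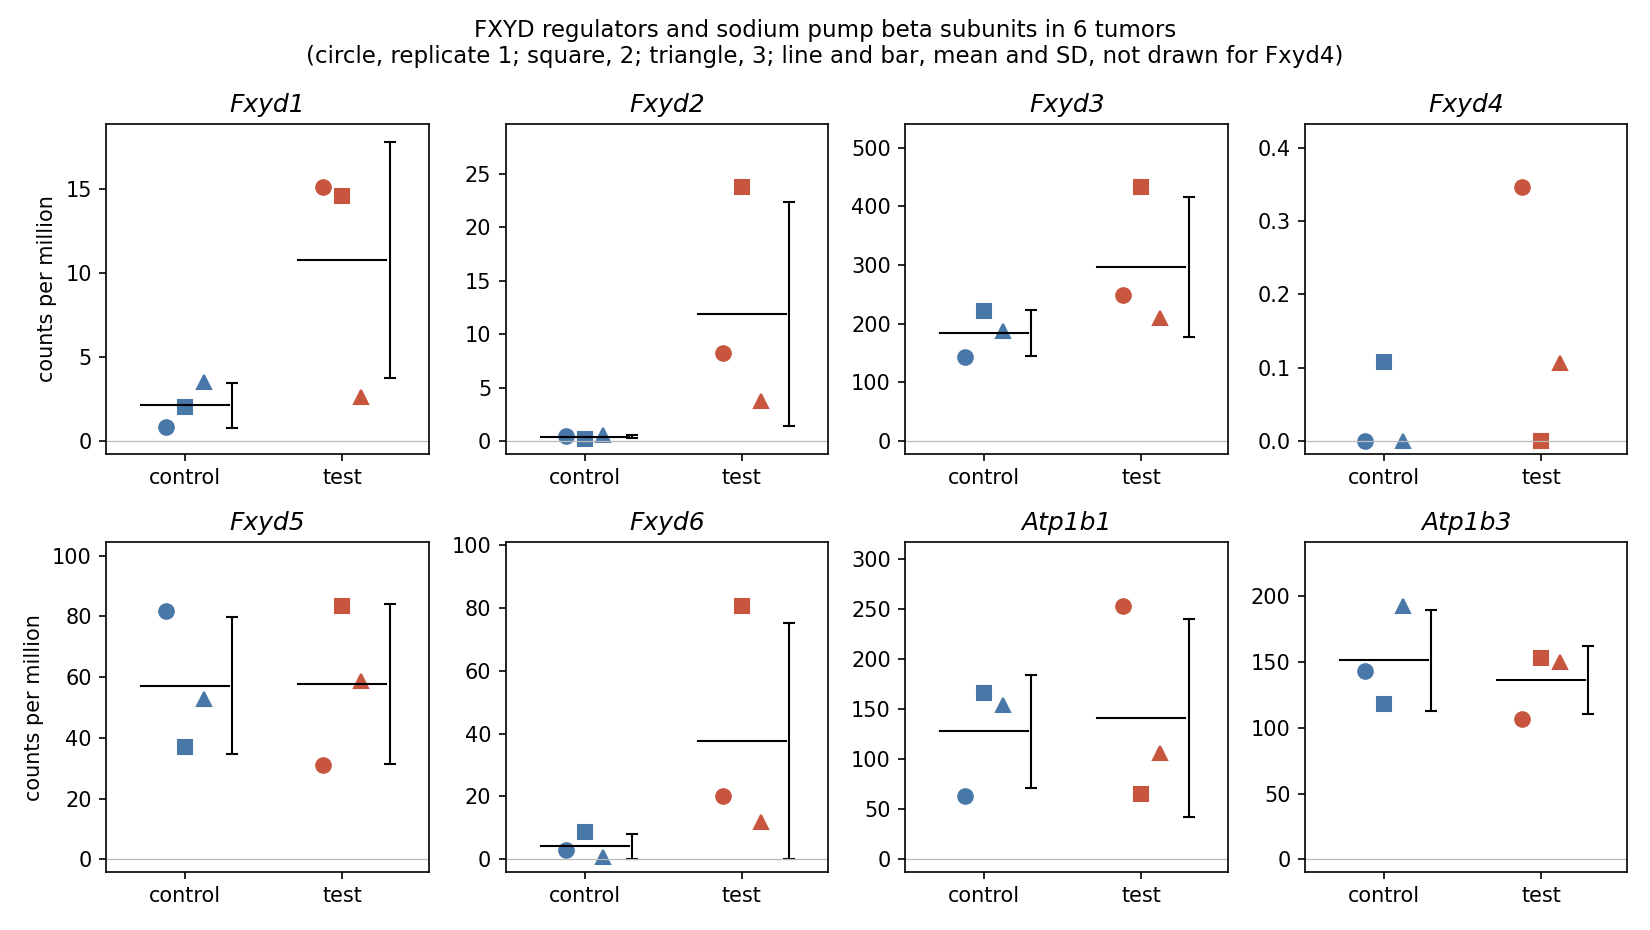
CPM of the 8 genes in each of 3 control (blue) and 3 test (red) tumors, with 1 panel and 1 linear axis per gene; lines and bars are group means and SD. Fxyd2 and Fxyd6 lie higher in every test tumor than in any control tumor, and the other 6 genes overlap between groups.

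Fxyd6, a regulator known mostly from brain and inner ear, was the other member whose groups did not overlap. It measured 3.01, 8.54 and 0.852 CPM in control tumors 1, 2 and 3, and 20.2, 80.8 and 11.9 CPM in test tumors 1, 2 and 3. Test tumor 2 was the highest and test tumor 3 the lowest of the test group, the same order as for Fxyd2. The mean was 37.6 ± 37.6 CPM in test and 4.13 ± 3.97 CPM in control tumors (SD, n = 3). The log2 fold change was 3.18 (SE 0.97), with an adjusted p of 0.454 in the edgeR quasi-likelihood test and an exact two-sided permutation p of 0.1, the smallest that 3 against 3 tumors allow. DESeq2 on the same counts gave 3.18 with an adjusted p of 0.015, so the call depended on the tool. Without test tumor 2 the fitted change was 1.94 and without control tumor 2 it was 4.28, both short of the threshold in edgeR.

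Fxyd1, or phospholemman, the main FXYD protein of heart and skeletal muscle, measured 0.81, 2.05 and 3.52 CPM in control tumors 1, 2 and 3. It measured 15.1, 14.6 and 2.65 CPM in test tumors 1, 2 and 3, so test tumor 3 lay inside the control range. The log2 fold change was 2.33 (SE 0.78), with an adjusted p of 0.483 in edgeR and 0.087 in DESeq2. Of 10 skeletal muscle markers, none at 0 in every tumor, all 10 were fitted higher in test tumors but only 1 had an unadjusted p under 0.05, as 3.15% of all tested genes did in that direction. Their sum was 18.3, 247 and 21.6 CPM in control tumors and 1384, 228 and 148 CPM in test tumors 1, 2 and 3, so the groups overlapped. The median log2 fold change of the muscle markers was 2.66. Adipocyte markers summed to 0.347, 7.14 and 3.73 CPM in control tumors and to 244, 59.7 and 2.02 CPM in test tumors 1, 2 and 3. Only 2 of the 6 adipocyte markers were tested. These 2 were fitted higher in test tumors, each with an unadjusted p under 0.05, at a median log2 fold change of 4.71. Test tumor 3 lay inside the control range of the adipocyte sum. With 1 tumor left out, the fitted change of Fxyd1 ran from 1.95 to 2.9, and it was 2.01 without test tumor 1. The part of muscle or fat in the Fxyd1 difference was not tested.

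Fxyd3, an epithelial regulator expressed in many breast tumors, was the most abundant member in all 6 tumors. It measured 269.28, 462.71 and 391.33 FPKM, fragments per kilobase of transcript scaled to depth, in control tumors 1, 2 and 3. In test tumors 1, 2 and 3 it measured 518.03, 826.69 and 421.56 FPKM, and test tumor 3 lay inside the control range. Its log2 fold change of 0.69 (SE 0.35) did not pass the edgeR test (adjusted p = 0.662, exact permutation p = 0.2). All 6 luminal markers were fitted higher in test tumors too, as were 7058 of all 13706 tested genes. The median log2 fold change was 0.87 for the markers and 0.02 for all tested genes. Of the 6 markers, 3 had an unadjusted p under 0.05, as 3.15% of all tested genes did in that direction. Whether Fxyd3, Fxyd6 or Fxyd2 moved with the epithelial content was not tested.

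Fxyd5, also called dysadherin, which weakens contacts between cells, differed between groups by less than its spread. It measured 75.74, 37.67 and 53.51 FPKM in control and 31.4, 79.04 and 57.86 FPKM in test tumors 1, 2 and 3. The fitted log2 fold change of 0.01 (SE 0.43, adjusted p = 0.995 in edgeR) changed sign in 6 of 12 alternative fits. Fxyd4, the regulator of the renal collecting duct and colon, had 0, 1 and 0 counts in control tumors and 3, 0 and 1 in test tumors. All values of Fxyd4 were at or under 3 counts, so it was not tested, and no fold change is given.

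Of the 7 members tested by edgeR after the filter on low counts, 6 were not used in the selection. None of these 6 passed an adjusted p of 0.05 in edgeR, and neither did any of the 13706 genes (0% of them). At an unadjusted p under 0.05, Fxyd6 and Fxyd1 were higher in test tumors and none of the 6 was lower, beside 3.15% of all genes higher and 5.26% lower. Fxyd6 was the only 1 of the 6 with every test tumor above every control tumor, which held for 6.12% of all genes, and 5.86% had every test tumor below. DESeq2 called 1 of the 6, Fxyd6, beside 313 of 13674 genes (2.29%). The median log2 fold change of the 6 was 0.42 and that of all tested genes 0.02. A gene as scarce in control tumors as Fxyd6 or Fxyd1 passed the filter partly through its test tumors, so these counts describe the members and support nothing further.

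Per length, the order of mean levels in control tumors was Fxyd3 (374 ± 98.1 FPKM), Atp1b3 (83.0 ± 22.7), Fxyd5 (55.6 ± 19.1), Atp1b1 (50.1 ± 23.8), Fxyd1 (3.96 ± 2.62), Fxyd6 (2.32 ± 2.31), Fxyd2 (0.74 ± 0.304) and Fxyd4 (0.07 ± 0.121; all SD, n = 3). Fxyd3 stood above all others in every tumor. In control tumors Fxyd5 overlapped Atp1b3 and Atp1b1, and the lowest Atp1b3 (67.03 FPKM) was just above the highest Atp1b1 (66.41 FPKM). Fxyd6 overlapped Fxyd1 and Fxyd2 there. In test tumors Fxyd2, Fxyd6 and Fxyd1 reached 20.4 ± 17.4, 20.3 ± 19.6 and 19.4 ± 12.6 FPKM, and did not differ from one another beyond their spread. All 3 genes stayed far below Fxyd3, at 589 ± 212 FPKM.

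The FXYD genes summed to 437 ± 81.6 FPKM in control and 706 ± 272 FPKM in test tumors (SD, n = 3), a sum that holds Fxyd2 and carries no test. Fxyd3 held 84.8 ± 6.9% of that sum in control and 83.9 ± 2.15% in test tumors. Fxyd2 held 0.0804 to 0.229% in control tumors and 1.29 to 3.94% in test tumors. Fxyd6 held 0.108 to 0.965% in control and 1.32 to 4.21% in test tumors, and Fxyd1 0.396 to 1.46% and 1.0 to 4.67%. The share of Fxyd5 was 13.6 ± 7.33% in control and 8.2 ± 3.22% in test tumors.

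**Figure D2:**
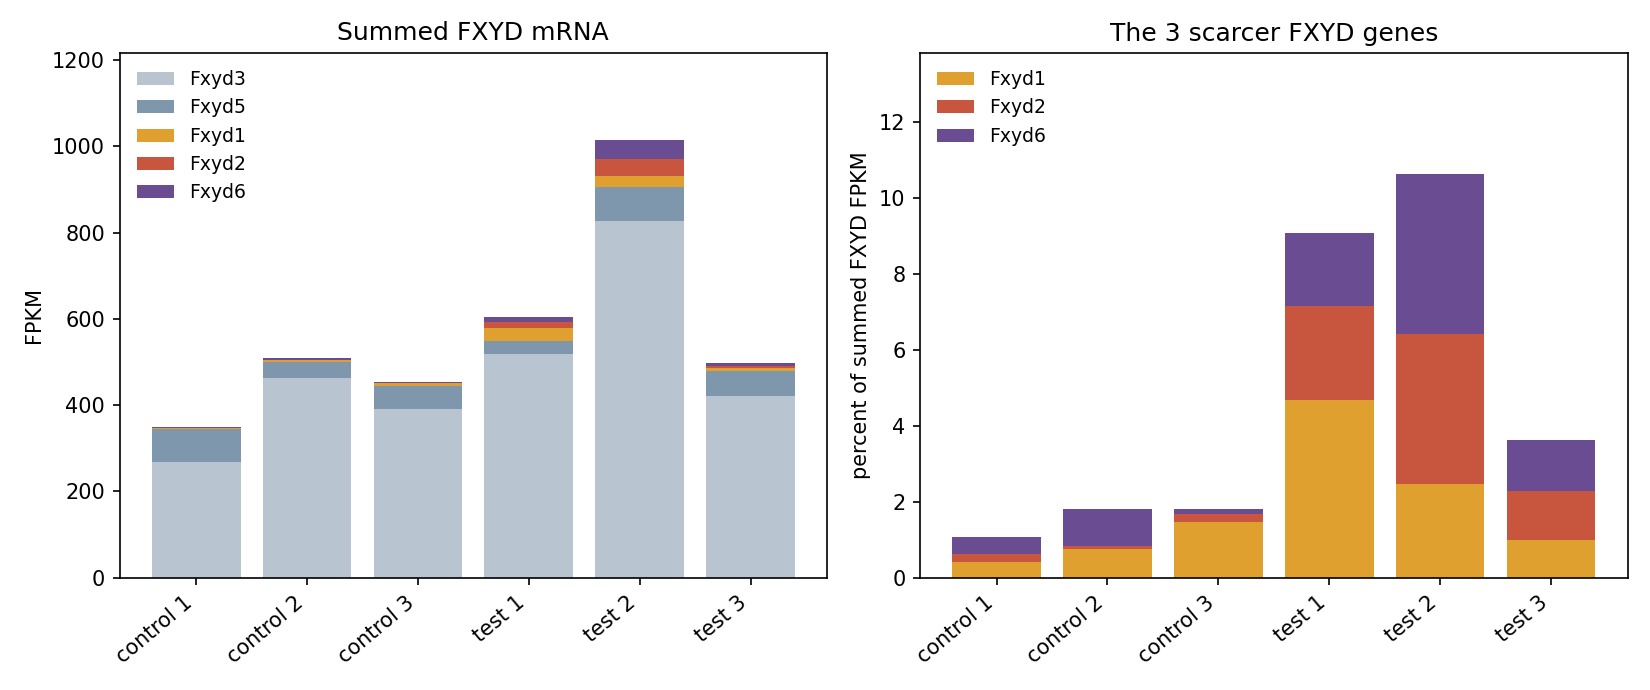
FPKM of Fxyd1, Fxyd2, Fxyd3, Fxyd5 and Fxyd6 stacked for each tumor (left), and the percent of the summed FXYD FPKM held by Fxyd1, Fxyd2 and Fxyd6 (right). Fxyd3 makes up most of every bar on the left, and the Fxyd2 segment on the right is 0.0804 to 0.229% in control tumors and 1.29 to 3.94% in test tumors.

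The beta subunits did not follow Fxyd2. Atp1b1, the beta subunit of most epithelia, measured 22.73, 66.41 and 61.1 FPKM in control and 100.64, 23.66 and 40.76 FPKM in test tumors 1, 2 and 3. It was lowest in control tumor 1 and in test tumor 2, the test tumor with the most Fxyd2. Its log2 fold change was 0.14 (SE 0.56, adjusted p = 0.957 in edgeR) and turned to -0.58 without test tumor 1. Atp1b3, which is widely expressed and common on leukocytes, measured 73.01, 67.03 and 109.22 FPKM in control and 60.38, 79.7 and 81.76 FPKM in test tumors. Its log2 fold change was -0.15 (SE 0.28, adjusted p = 0.9 in edgeR) and turned to 0.07 without control tumor 3. The ratio of Atp1b1 to Atp1b3 was 0.311, 0.991 and 0.559 in control and 1.67, 0.297 and 0.499 in test tumors, so both groups spread over a wide and shared range (exact permutation p = 1.0).

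**Figure D3:**
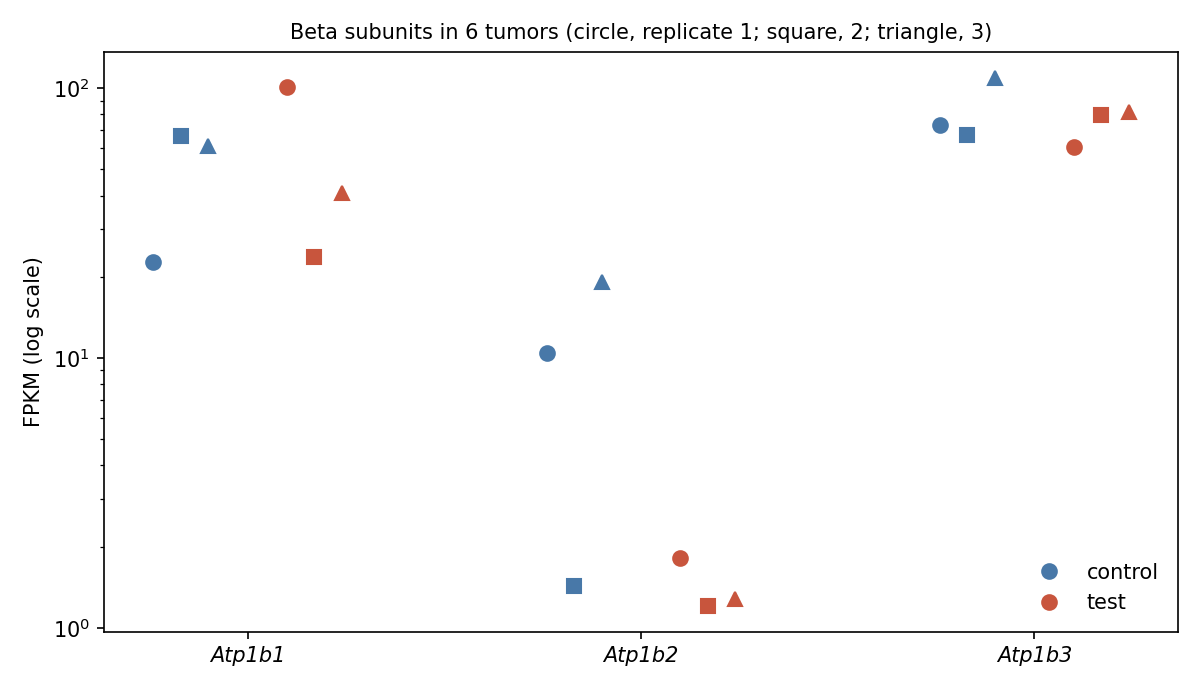
FPKM on a log axis of 3 beta subunit genes in 3 control (blue) and 3 test (red) tumors. Atp1b1 and Atp1b3 overlap between groups, and Atp1b2 is below 2 FPKM in all 3 test tumors and in control tumor 2.

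Atp1b2, the beta subunit best known from glia, was the pump gene with the lowest fitted change. It measured 33.2, 4.11 and 55.0 CPM in control tumors and 5.19, 3.78 and 3.82 CPM in test tumors 1, 2 and 3. Control tumor 2 was thus at the level of the test tumors, and the groups overlapped. The log2 fold change was -2.85 (SE 0.81), with an adjusted p of 0.438 in edgeR, and 0.0125 in DESeq2. With 1 tumor left out in edgeR it ran from -3.37 to -2.13, and the adjusted p was 0.0181 without control tumor 2, 0.964 without control tumor 3, 1.0 without control tumor 1 and 0.599 to 0.657 without a test tumor. Myoepithelial markers summed to 743, 421 and 2895 CPM in control tumors and 1128, 627 and 475 CPM in test tumors 1, 2 and 3. Schwann and nerve markers summed to 588, 541 and 670 CPM in control and 583, 364 and 623 CPM in test tumors. The part of either cell type in the Atp1b2 difference was not tested.

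Among the 14 other genes of the sodium pump list, which holds the remaining alpha, beta and FXYD genes, the related proton pumps and the NKAIN pump-interacting proteins, 13 were read in some tumor and 7 were tested. Of these 7, 1 was fitted higher and 6 were fitted lower. Of all 13706 tested genes, 7058 were fitted higher and 6648 lower. Only Atp1b2 of the 7 had an unadjusted p under 0.05, beside 5.26% of all tested genes lower at that level. Nkain3 was at -0.99 (SE 0.60), the non-gastric proton pump gene Atp12a at -0.91 (SE 0.86) and Nkain1 at -0.04 (SE 0.54), and none of these 3 passed the test. Atp12a moved to -2.6 without test tumor 2 and to -0.43 without test tumor 3, and Nkain3 to -0.31 without control tumor 3. Fxyd7, a neuronal regulator that lies between Fxyd5 and Fxyd1, had 5 counts over all 6 tumors. Atp1a4 had at most 6.04 expected counts in any tumor and Atp1b4 at most 1. Atp4a and Nkain2 were not tested, Nkain4 had no reads in test tumors, and Atp4b was at 0 in all 6.

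**Figure D4:**
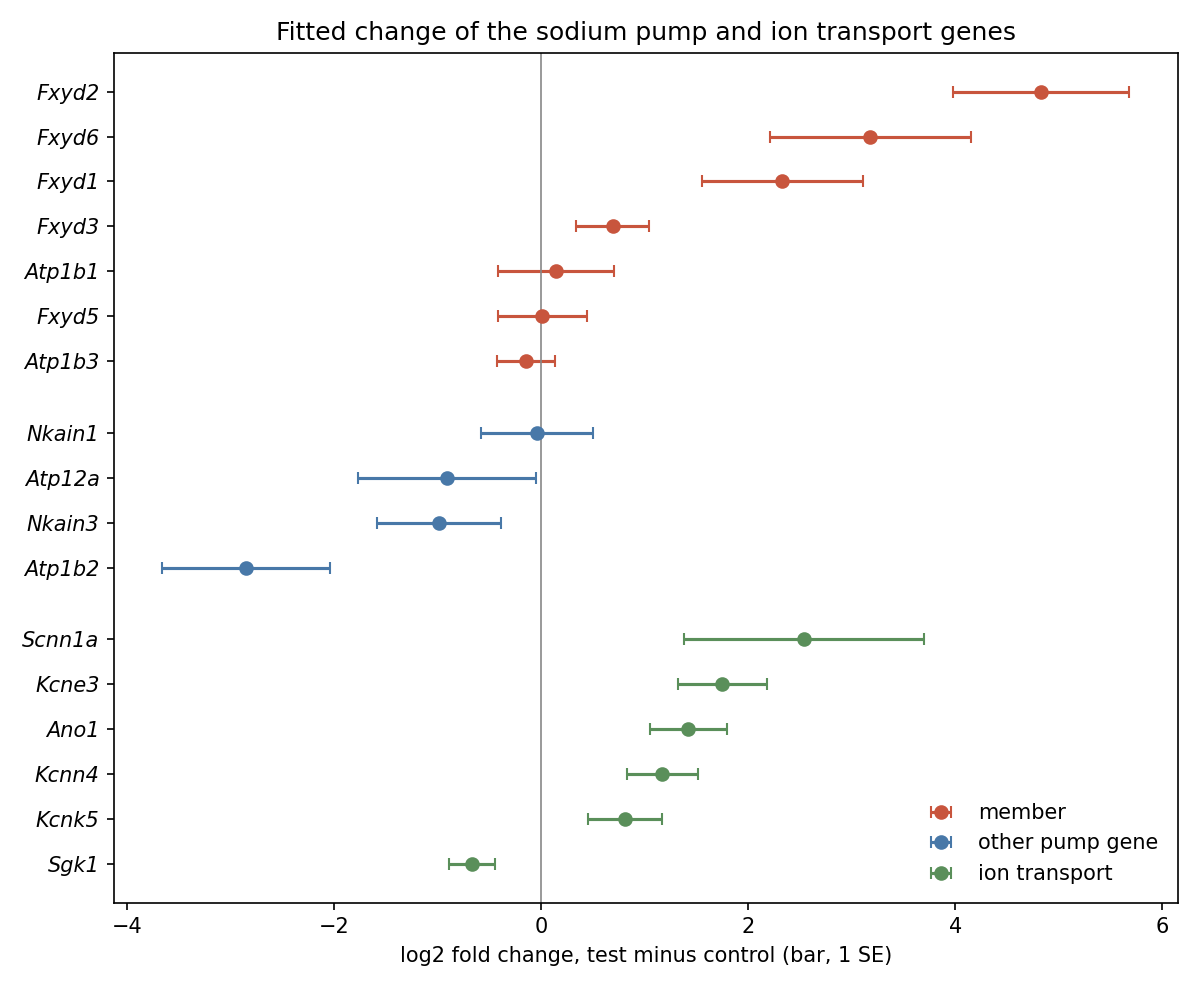
Fitted log2 fold change, test minus control, with 1 SE, for the 7 tested members (red), 4 other tested pump genes (blue) and 6 ion transport genes (green). Among the pump genes Fxyd2 at 4.83, Fxyd6 at 3.18 and Fxyd1 at 2.33 lie furthest right, and Atp1b2 at -2.85 lies furthest left.

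Epithelial ion transport was read from a list of 28 channels, carriers and their kinases, of which 27 were tested. In test tumors 18 were fitted higher and 9 lower, with a median log2 fold change of 0.37 beside 0.02 for all tested genes. No gene of the list passed an adjusted p of 0.05 in edgeR. At an unadjusted p under 0.05, 3 of the 27 were higher and 1 was lower, beside 3.15% and 5.26% of all tested genes. Every test tumor was above every control tumor in 6 of the 27 and below in 1, beside 6.12% and 5.86% of all tested genes.
Kcne3, a potassium channel subunit that supports chloride secretion, measured 4.63, 2.92 and 2.66 CPM in control and 8.53, 15.4 and 10.4 CPM in test tumors. Its log2 fold change was 1.75 (SE 0.43, adjusted p = 0.394 in edgeR and 0.0181 in DESeq2). Ano1, a calcium-activated chloride channel, measured 287, 349 and 231 CPM in control and 1094, 476 and 750 CPM in test tumors, a log2 fold change of 1.42 (SE 0.37, adjusted p = 0.407 in edgeR and 0.0206 in DESeq2). In both genes the groups did not overlap, and the luminal marker sum was higher in all 3 test tumors too.
Kcnn4, a calcium-activated potassium channel, went from 143 to 304 CPM in control tumors to 512 to 595 CPM in test tumors, a log2 fold change of 1.17 (SE 0.34, adjusted p = 0.447 in edgeR). Sgk1, a kinase that raises epithelial sodium uptake, measured 154, 139 and 147 CPM in control and 103, 83.5 and 89.6 CPM in test tumors. Its log2 fold change was -0.67 (SE 0.22, adjusted p = 0.475 in edgeR), with every test tumor below every control tumor. Scnn1a, the alpha subunit of the epithelial sodium channel, had a log2 fold change of 2.54 (SE 1.16) that rested on test tumor 1 at 134 CPM and was 0.27 without it. The other test tumors had 19.0 and 2.44 CPM and the control tumors 5.67 to 11.2 CPM. Kcnk5, a background potassium channel, was fitted at 0.81 (SE 0.36) with an adjusted p of 0.61 in edgeR.

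A list of 18 renal tubule genes was read beside Fxyd2, because the kidney is its best known site. Of the 18 genes, 14 were read in at least 1 tumor. Pax8, a transcription factor of the tubule, and Umod, Kcnj1 and Cldn16, tubule products, had at most 0.44 expected counts in any tumor. Other untested genes of the list were read at low counts, such as Slc12a3 at 0 to 7 and Cldn19 at 0 to 9 counts per tumor. Of the 18 genes 5 were tested, 3 fitted higher and 2 lower, beside 7058 higher and 6648 lower of all 13706 tested genes. At an unadjusted p under 0.05, 1 of the 5 was higher, beside 3.15% of all tested genes. The 1 with an unadjusted p under 0.05 was Pvalb, a calcium buffer of the distal tubule and also of fast muscle, at 0.116, 1.19 and 0.107 CPM in control and 5.53, 6.1 and 0.743 CPM in test tumors. Its log2 fold change was 3.08 (SE 1.11, adjusted p = 0.513 in edgeR) and was 5.05 without control tumor 2 (adjusted p = 0.134), and the muscle marker sums given for Fxyd1 stand beside it as well. Trpm6, the magnesium channel, was fitted at 0.85 (SE 0.70) and at 0.16 without test tumor 3, Kcnj10 at -0.59 (SE 0.56) and Cnnm2 at -0.21 (SE 0.33). The levels of these genes were 2.77 to 34.8 CPM for Trpm6, 2.65 to 8.95 CPM for Kcnj10 and 18.7 to 35.5 CPM for Cnnm2 over the 6 tumors. Whether tubule-type cells bear on Fxyd2 was not tested.

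Position along the chromosome was compared because FXYD genes lie in clusters. By the RefSeq annotation of GRCm38, Fxyd6 (chr9:45369470-45396159) and Fxyd2 (chr9:45399709-45410278) are neighbours on the plus strand, 3549 bases apart, and do not overlap. Within 100 kb of Fxyd2, 1 further gene was tested. It was Tmprss13, a membrane serine protease of epithelia, 52127 bases away, at no more than 29.3 CPM in control and at 57.9, 33.2 and 50.5 CPM in test tumors. The log2 fold change of Tmprss13 was 1.21 (SE 0.39, adjusted p = 0.473 in edgeR), and its groups did not overlap. Dscaml1 and Lncbate3, also within 100 kb, had 7 and 5 counts over all 6 tumors, and 4833428L15Rik had none.

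Fxyd5 (chr7:31032723-31042331), Fxyd1 (chr7:31051678-31055873) and Fxyd3 (chr7:31070535-31076697) form the other cluster, on the minus strand, with Fxyd7 between Fxyd5 and Fxyd1. All 7 tested neighbours of these 3 genes within 100 kb were fitted higher in test tumors, as were 7058 of all 13706 tested genes. Of the 7 neighbours, 1 had an unadjusted p under 0.05, beside 3.15% of all tested genes in that direction. That gene was Hpn, a serine protease of epithelia, with a log2 fold change of 1.07 (SE 0.27, adjusted p = 0.394 in edgeR). Fxyd3 overlaps Lgi4, on the opposite strand, by 401 bases at its 3′ end. Lgi4 was fitted at 0.83 (SE 0.40), and reads of this stretch cannot be told apart where strand was not kept. The 3′ end of Atp1b1 overlaps Nme7 by 202 bases in the same way, and Nme7 was fitted at -0.03 (SE 0.27). The noncoding RNA gene Gm38984, which had no counts, overlaps Fxyd1 by 4196 bases and Fxyd5 by 5489 bases. The microRNA gene Mir7050, also without counts, lies within Fxyd5. Fxyd2 and Fxyd6 overlap no other gene in this annotation.

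**Figure D5:**
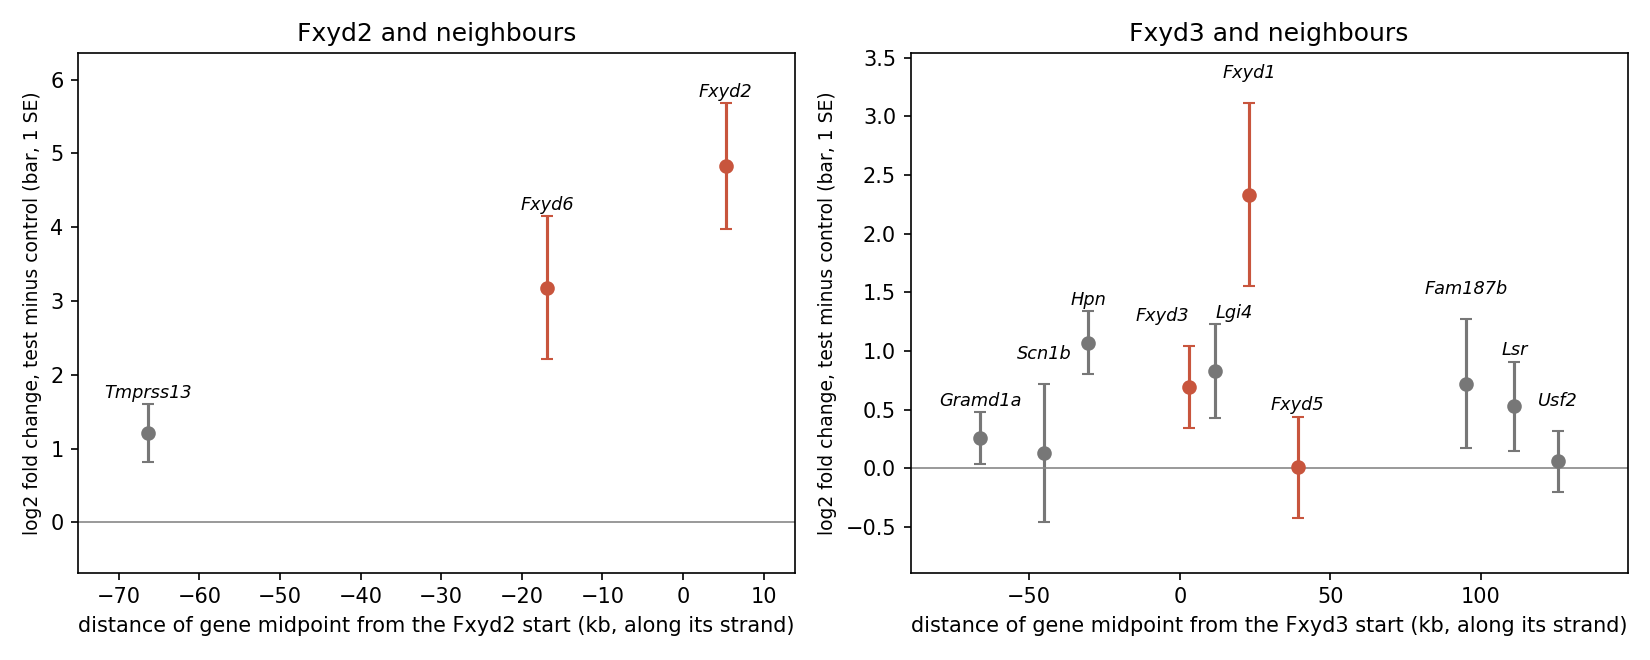
Fitted log2 fold change, test minus control, with 1 SE, against the distance in kb of each tested gene's midpoint from the start of Fxyd2 (left) or Fxyd3 (right), counted along that gene's strand. Members are red and other genes grey. Fxyd2 and Fxyd6 stand at 4.83 and 3.18 with Tmprss13 at 1.21, and near Fxyd3 only Fxyd1 lies above 2.

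Promoters of 7 of the 8 members were found in RefSeq's table on GRCm38.p6, and the 250 bases before the start are shown for the most abundant FXYD gene and for the epithelial beta subunit. Capitals mark matches on either strand to the TATA box TATAAA, the CCAAT box, the GC box GGGCGG, the STAT core TTCNNNGAA or the E-box CACGTG, which do not overlap one another here.
Fxyd3, chr7:31076698-31076947, minus strand: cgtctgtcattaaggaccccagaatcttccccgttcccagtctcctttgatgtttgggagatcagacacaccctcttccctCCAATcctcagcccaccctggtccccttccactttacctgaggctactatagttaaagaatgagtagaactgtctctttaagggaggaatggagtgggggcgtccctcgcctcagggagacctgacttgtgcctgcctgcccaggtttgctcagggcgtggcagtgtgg
Atp1b1, chr1:164458356-164458605, minus strand: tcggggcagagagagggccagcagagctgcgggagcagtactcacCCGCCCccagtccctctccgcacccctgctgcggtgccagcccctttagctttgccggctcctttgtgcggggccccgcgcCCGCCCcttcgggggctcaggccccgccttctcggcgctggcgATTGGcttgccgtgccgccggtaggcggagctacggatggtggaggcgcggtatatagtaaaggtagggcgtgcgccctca
The Atp1b1 window held 24 CpG dinucleotides at 70.4% GC, and the Fxyd3 window 5 CpG at 55.2% GC. The windows of Fxyd1, Fxyd4, Fxyd5 and Fxyd6 held 3 to 5 CpG and the pair of windows of Atp1b3 24 and 35. GGGCGG was found in the windows of Atp1b1, Atp1b3 and Fxyd4 and in 32.7% of all 32851 promoters, and CCAAT in those of Atp1b1, Fxyd3 and Fxyd6 and in 33.8%. TATAAA, in 12.4% of promoters, and TTCNNNGAA, in 7.02%, were found in none of the 8 windows of these 7 members. CACGTG, in 6.02% of promoters, was found in 1 window of Atp1b3. These letters describe the windows and say nothing of which factor acts there.

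The genes most like Fxyd2 over the 6 tumors were found by Pearson's r of log2(CPM + 0.5) over 13705 other tested genes. They were Nras (r = 0.996), Dusp23 (0.994), Crnde (0.987), Ccdc84 (0.984) and Snhg17 (0.98), and 45 genes reached 0.95. With 2 groups of 3 tumors set apart by Fxyd2, such values mostly reflect the difference between groups and the order within the test group, and they carry no p. The rise of these genes was small beside that of Fxyd2: Nras went from 104, 104 and 108 CPM in control to 142, 161 and 132 CPM in test tumors, a log2 fold change of 0.46. Dusp23 had 1.17 and Crnde, Ccdc84 and Snhg17 had 0.62 to 0.86. Fxyd6 ranked 316 by the same measure (r = 0.862), Fxyd1 ranked 339 (0.856) and Fxyd3 ranked 436 (0.831). Fxyd5, Atp1b1 and Atp1b3 were far from it, with r of 0.154, -0.138 and -0.134.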

How the data were processed

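RNA sequencing of 6 whole tumors was analyzed, 3 test and 3 control, grouped by their GEO titles. Per the labels, libraries were made at BGI, and the submitters' processing notes name Bowtie, BWA and RSEM and the mm10 build. Versions are not given in the sources used here. The authors deposited per tumor and gene an expected count, an FPKM and a length in bases. Genes were matched by NCBI Gene identifier, 18400 of 18460. A gene not listed for a tumor was set to 0.

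Expected counts were rounded, kept by filterByExpr (13706 genes), TMM-scaled and tested in edgeR 4.0.16 (R 4.3.3) by the quasi-likelihood test without covariates, with Benjamini-Hochberg adjustment over all tested genes. The method was checked on counts drawn with known changes. The drawn counts spread less between libraries than these tumors did, so the check does not show its power here. The study's methods name a Poisson method, NOISeq and EBSeq, which were not used here. Alternatives were RLE factors, DESeq2 1.42.0, no filter, the replicate number as a block, limma-trend 3.58.1 on log2(FPKM + 1) and log2(FPKM + 0.1), and leaving out each tumor. CPM used TMM library sizes. Exact permutation tests were two-sided on log2(CPM + 0.5), or on log2 ratios of FPKM, and cannot give a p below 0.1. Depth allows no level under 3 counts per tumor to be told from 0, counting error only.

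The members and lists were chosen with earlier results of these data known. Named genes were all members, the other sodium pump genes, up to 6 genes each of the transport and renal lists with the lowest unadjusted p, genes within 100 kb of Fxyd2, the 5 genes most like it, the altered genes and the cell markers. Renal genes at or near 0, Slc12a3, Cldn19, Hpn, Lgi4, Nme7, Gm38984 and Mir7050 were added to these names once their values were known. Some genes of the lists are counted in them but are not reported here by name. Marker sums not given with a result above were 967 to 2948 CPM in control and 1161 to 4971 CPM in test tumors for fibroblast, 94.7 to 136 and 103 to 142 CPM for endothelium, 118 to 253 and 101 to 146 CPM for macrophage, and 2.27 to 4.9 and 2.2 to 3.71 CPM for T and B cell genes.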

Additional observations from a re-analysis of the deposited data

How the results depend on the processing

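The count of genes at an adjusted p of 0.05, 0 in edgeR, was 313 in DESeq2, 1 with limma-trend on log2(FPKM + 1), and 0 to 150 with 1 tumor left out, 150 without control tumor 2. At an unadjusted p under 0.05 there were 1153 genes, and 614 to 1885 with 1 tumor left out. The log2 fold change of Fxyd2 was 3.3 with limma-trend on log2(FPKM + 1), where the pseudocount shrinks a scarce gene, and 3.83 to 5.27 with 1 tumor left out. Fxyd6 passed only in DESeq2 (3.18, adjusted p = 0.015), and its fits with 1 tumor left out ran from 1.94 to 4.28.

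Changes near 0 turned their sign. Fxyd5 went to -0.03 in both limma-trend fits and ran from -0.35 to 0.36 with 1 tumor left out, Atp1b1 from -0.58 to 0.48, Atp1b3 from -0.3 to 0.07 and Nkain1 from -0.36 to 0.78. Nkain1 was 0.1 and 0.14 by limma-trend. Of the 5 genes most like Fxyd2, 4 stayed in the top 5 under RLE scaling and 0 had a Spearman rho of 1. That rho was reached by 27 other tested genes, so which genes are most like Fxyd2 depends on the measure.

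Numbers 1 to 3 in the titles do not pair the tumors, which came from separate mice: deviations of same-numbered tumors correlated at -0.025, 0.121 and -0.137. With the replicate block, 0 genes passed and 1056 had an unadjusted p under 0.05. The replicate block gave 4.43 for Fxyd2, 3.22 for Fxyd6, 2.25 for Fxyd1, -0.01 for Fxyd5, -0.03 for Atp1b1 and 0.16 for Nkain1.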
